A study of Mus musculus with 9 samples.

Results

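The blood of mice with polytrauma (PT) was compared with that of untouched control mice (Ctrl) on 6 of the 9 arrays of the series, 3 per group, chosen by their treatment label. Each array held the blood RNA of 1 animal, and all animals were C57BL/6 mice aged 8 to 9 weeks with a mean weight of 25 g. PT mice received a traumatic brain injury, a closed fracture of the femur with soft tissue injury and a blunt trauma of both sides of the chest, and blood was taken from the heart 4 h after trauma. They stayed under sevoflurane anesthesia for this time, received buprenorphine against pain and, per the methods, carried arterial and venous catheters. Ctrl mice had no injury and no instruments, and their blood was drawn once sevoflurane had taken effect. The trauma can therefore not be told apart from the anesthesia, the drugs, the catheters or the hours under observation. The 3 other arrays, of mice with polytrauma and hemorrhagic shock (PT + HS), entered the estimate of the spread between animals and no mean of the comparison. These mice were also bled 1 h after trauma to a mean arterial pressure of 30 mmHg, held for 60 min. They then received fluid of 4 times the blood volume over 30 min, and norepinephrine to keep up the pressure. A few of their values are quoted beside those of PT. All 18194 genes with a probe set of their own were tested, with 1 probe set per gene, and values are log2 expression values, so that a difference of 1 is a doubling. Blood went into RNA-stabilizing tubes without separation of cells, so that the RNA of leukocytes, platelets and young red cells was measured together, and fewer cells of a type cannot be told apart from less RNA per cell.

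Injury releases molecules from damaged cells that are sensed by pattern recognition receptors of neutrophils and monocytes, such as toll-like receptors and C-type lectins. These cells leave the bone marrow and the vessel wall and enter the circulation, where cytokines and their feedback inhibitors shape their genes. Stress hormones act at the same time: glucocorticoids bind a nuclear receptor that induces a known set of genes in most leukocytes, and both glucocorticoids and catecholamines are known to change the number of lymphocytes in blood. Neutrophils carry enzymes in granules and B cells carry the machinery of antigen presentation, so that genes of these cells can be followed in whole blood through their markers.

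The array of PT replicate 2 was unlike all others, and the counts are therefore given with and without it. Differences of single genes are over all 3 PT arrays unless stated otherwise. Its correlation with the other 8 arrays was 0.900 to 0.944 over genes, and among those 8 no pair was below 0.958. The distance depended on the expression level. The genes were split into 10 equal groups by their level in Ctrl. In the group with the highest level the median gene of PT replicate 2 was 0.61 below the mean of Ctrl, and in the lowest 5 groups it was 0.11 to 0.16 above it. In PT replicates 1 and 3 the medians of all 10 groups lay between -0.08 and 0.13. The SD over genes was 1.67 in PT replicate 2 and 1.82 to 1.92 in the other 8 arrays, so that its values spanned a narrower range. Differences of highly expressed genes from Ctrl were thus shifted downwards on this array, and the part of this shift in the single results was not tested.

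**Figure D1:**
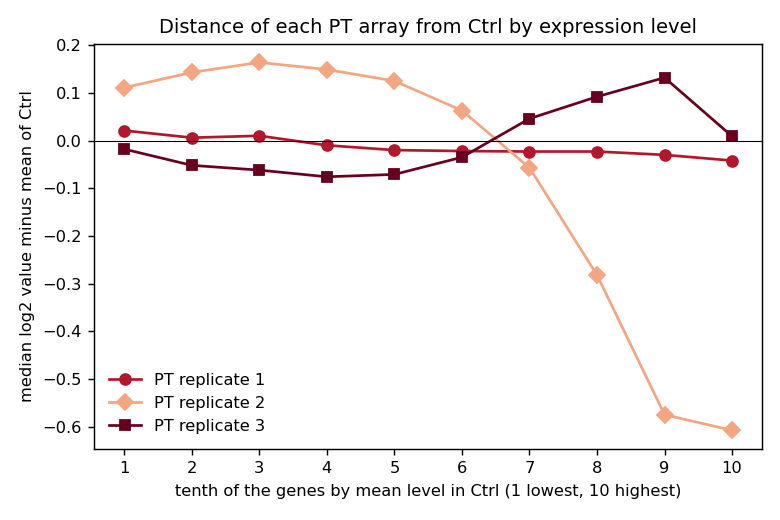
Median log2 value minus the mean of the 3 Ctrl arrays (y axis) for 10 equal groups of genes by level in Ctrl (x axis, group 1 lowest and 10 highest), with 1 line per PT array. PT replicate 2 falls to -0.58 and -0.61 in the highest 2 groups, while replicates 1 and 3 stay near 0.

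At the thresholds of the study, an unadjusted p under 0.05 and a difference of at least 1.5-fold, 257 genes (1.41% of all) were higher and 411 genes (2.26%) lower in PT than in Ctrl. None had an adjusted p under 0.05 in limma, with 1058 genes at an unadjusted p under 0.05. With no difference at all, a share of 0.05 of the 18194 genes would be under this unadjusted p. Many of the called genes may therefore be chance, and "higher" and "lower" name the direction of a call only. The collagenase gene Mmp8 and the transcription factor gene Klf10 had the smallest adjusted p, 0.0748 each. Without PT replicate 2 the balance turned: 768 genes (4.22%) were higher and 349 genes (1.92%) lower, and 47 genes (0.258%) had an adjusted p under 0.05, 45 of them higher. Of the genes past the thresholds 198 were higher in both fits, 77.0% of those called with PT replicate 2 and 25.8% of those called without it. Lower in both fits were 208 genes, 50.6% and 59.6% of the respective sets. No gene was called in opposite directions. Leaving out PT replicate 3 in place of PT replicate 2 gave 496 higher and 997 lower genes. Another scaling also moved the balance: of all genes called, 38.5% were higher with the deposited values and 51.7% (346 higher, 323 lower) after cyclic loess between the arrays. The 47 genes rested on few arrays, and 2 remained without Ctrl replicate 2, 5 without PT + HS replicate 1 and 12 without Ctrl replicate 1. Leaving out PT replicate 1 or 3 as well leaves 1 PT array, so that nothing is concluded from the counts of these fits. All 3 PT arrays lay outside the range of the 3 Ctrl arrays for 1718 genes (9.44%), and PT replicates 1 and 3 did so for 4304 genes (23.7%). With so few arrays, shares close to these arise from a random order of the arrays alone. A lack of overlap by itself therefore says little about a gene. The direction of the called genes did not differ between the fits. These share the Ctrl arrays and PT replicates 1 and 3, so that opposite calls were hardly possible and the agreement is no independent support. The number of genes and the share of higher genes depended on 1 animal.

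**Figure D2:**
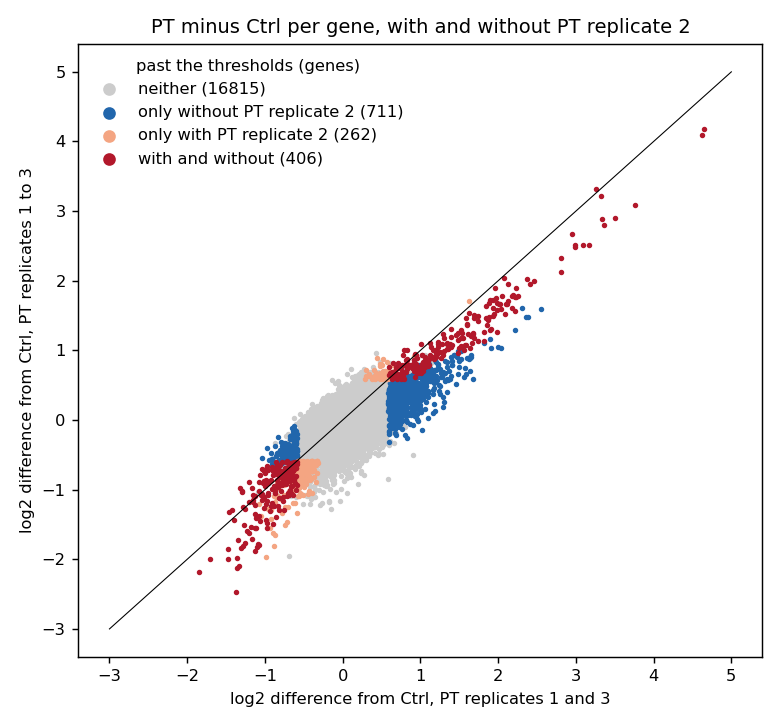
Log2 difference of PT from Ctrl for each of 18194 genes, from PT replicates 1 and 3 (x axis) and from all 3 PT arrays (y axis), with the line of equality. The 406 genes called in both fits (dark red) lie along both arms, and most of the 711 genes called only without PT replicate 2 (blue) are on the positive side, 570 higher and 141 lower.

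Of the 10 genes with the largest positive differences 4 were in the neutrophil list (Mmp8, Il1r2, Clec4e and Hcar2) and 1, Vcan, in that of classical monocytes. Mmp8, a collagenase stored in neutrophil granules, had log2 values of 6.06, 5.00 and 5.40 in the Ctrl arrays and of 10.52, 8.74 and 9.75 in PT replicates 1 to 3. All PT arrays thus lay far above all Ctrl arrays. The difference was 4.18 (standard error 0.47, 18.2-fold) over 3 PT animals, and 4.65 (standard error 0.40, adjusted p = 0.00396) without PT replicate 2. Il1r2, the decoy receptor that binds interleukin-1 without signaling, had 5.61, 4.92 and 3.73 in Ctrl and 9.67, 7.80 and 9.08 in PT. Its difference was 4.09 (standard error 0.54) and, without PT replicate 2, 4.62 (adjusted p = 0.0102). Arg2, the mitochondrial arginase that splits arginine, had 4.86, 4.72 and 4.47 in Ctrl and 8.63, 6.41 and 8.26 in PT. Here the Ctrl arrays lay close together, and the difference was 3.08 (standard error 0.52), or 3.76 (adjusted p = 0.00396) without PT replicate 2. In all 3 genes PT replicate 2 was the lowest of the PT arrays and yet far from Ctrl.

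The other genes of the top 10 included several receptors. Ccr1, a receptor of inflammatory chemokines, had 7.23, 6.03 and 6.16 in Ctrl and 10.20, 8.46 and 9.41 in PT, a difference of 2.88 (standard error 0.46). Clec4e, also called Mincle, a C-type lectin for glycolipids of microbes and a protein of dead cells, differed by 2.90 (standard error 0.59). Hcar2, the receptor of niacin and of the ketone body hydroxybutyrate, differed by 2.80 (standard error 0.55) with Ctrl arrays between 4.43 and 4.53 and PT arrays between 6.17 and 8.01. Vcan, a proteoglycan of classical monocytes, differed by 3.31 (standard error 0.80), but its PT values of 8.46, 6.66 and 4.56 were widely spread, and its 8 probe sets gave -0.16 to 3.31. The acute phase gene Saa3 (2.67, standard error 0.58) and Dmxl2, a regulator of the vesicular proton pump (2.51, standard error 0.57), also stood in the top 10. Ms4a6d (3.22, standard error 0.64) belongs to a family of close relatives, and its identity is uncertain, with 0.03 to 3.22 over 3 probe sets. For Ccr1, Clec4e, Hcar2 and Dmxl2 the adjusted p was 0.0215, 0.0321, 0.0321 and 0.0302 without PT replicate 2, and for Vcan, Saa3 and Ms4a6d 0.247, 0.113 and 0.121.

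**Figure D3:**
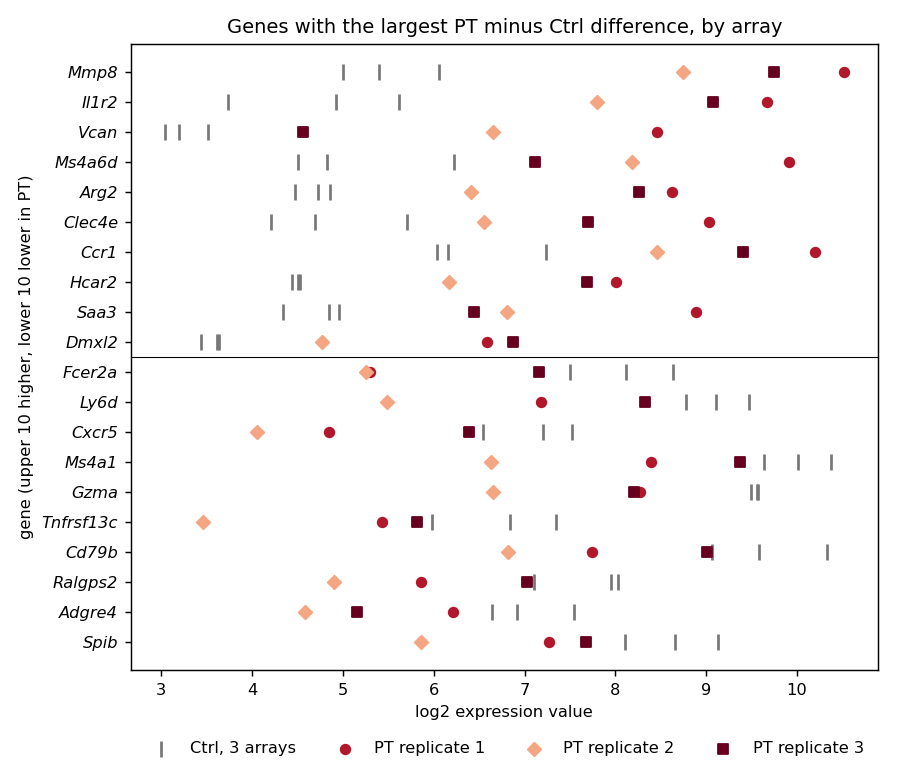
Log2 expression values (x axis) on each Ctrl array (grey ticks) and each PT array (circle, diamond and square for replicates 1, 2 and 3) for the 10 genes of each direction with the largest difference and no overlap of the groups. For the higher genes all PT arrays lie to the right of Ctrl and for the lower genes to the left, and PT replicate 2 is the PT array with the lowest value for 17 of the 20 genes.

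The bases before the start of 3 of the higher genes are shown as the nearest part of their promoters, from the RefSeq table of mouse genes on build GRCm38.p6. Socs3, described below, is shown with Mmp8 and Il1r2 because STAT3 is known to induce it. Capitals mark matches, on either strand, to the letters TTCNNNGAA (bound by STAT factors), TTGCNNAA (C/EBP), GAGGAAGT (the ETS factor PU.1) and CACGTG (the E-box), and the sequences end at the base before the transcription start.
Mmp8 (chr9:7558179-7558428, plus strand): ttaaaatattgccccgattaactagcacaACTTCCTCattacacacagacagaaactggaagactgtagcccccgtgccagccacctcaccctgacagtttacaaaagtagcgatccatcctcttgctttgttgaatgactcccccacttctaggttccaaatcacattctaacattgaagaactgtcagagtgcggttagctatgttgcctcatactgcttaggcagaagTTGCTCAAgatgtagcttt
Il1r2 (chr1:40085843-40086092, plus strand): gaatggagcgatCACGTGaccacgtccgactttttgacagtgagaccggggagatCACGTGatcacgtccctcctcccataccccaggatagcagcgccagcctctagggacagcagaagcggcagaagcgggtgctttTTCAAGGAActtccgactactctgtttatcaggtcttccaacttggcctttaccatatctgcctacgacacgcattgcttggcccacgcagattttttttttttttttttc
Socs3 (chr11:117969367-117969616, minus strand): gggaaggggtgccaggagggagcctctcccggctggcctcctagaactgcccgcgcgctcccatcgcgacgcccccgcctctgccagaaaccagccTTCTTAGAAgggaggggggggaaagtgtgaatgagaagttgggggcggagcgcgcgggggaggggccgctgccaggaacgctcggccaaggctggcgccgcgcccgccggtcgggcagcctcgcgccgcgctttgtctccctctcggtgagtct
Il1r2 and Socs3 each held 1 match to the STAT letters, and Mmp8 held 1 match to the C/EBP letters and 1 to those of PU.1. Of the 198 genes higher in both fits, 164 had an entry in the table, and the STAT letters stood within the same 250 bases in 18 of these (11%), against 911 of 14453 entries of all genes tested (6.3%). For the C/EBP letters the shares were 12.8% and 8.07%, and for ACANNNTGT, letters of the glucocorticoid receptor element, 9.76% and 4.37%. The letters of PU.1 (4.88% and 2.32%), of the E-box (10.4% and 7.56%) and ATGCAAAT, the octamer (2.44% and 1.38%), were likewise more frequent in the higher genes, as were those of NF-kB, with 2 promoters (1.22% and 0.381%). Of the 8 motifs searched only that of EBF was less frequent (0.61% and 0.92%), so that no motif stood alone. Among 162 of the 208 genes lower in both fits the shares for STAT, C/EBP and ACANNNTGT were 8.02%, 8.02% and 4.94%. These are counts of letters and no test was made, so that they say nothing about binding.

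All neutrophil markers that were called were higher in PT. Of 20 measured markers 13 were higher in PT and none was lower, with a median of 1.13 where the median of all genes was -0.0003. Without PT replicate 2, 14 were higher and 7 of them had an adjusted p under 0.05, with a median of 1.36. Counts of this and every later list stand beside those of all genes, of which 3.67% were called with PT replicate 2 and 6.14% without it. The share of all genes called higher rose from 1.41% to 4.22% when PT replicate 2 was left out. More higher calls in a list without that array need therefore not be particular to the list. The calgranulins S100a8 and S100a9, which form calprotectin, were among the most highly expressed genes. S100a8 had 11.70, 10.93 and 10.87 in Ctrl and 12.78, 11.56 and 12.37 in PT, so that PT replicate 2 lay within the range of Ctrl, and the difference was 1.07 (standard error 0.37). Hdc, the enzyme that makes histamine, had 5.47, 6.00 and 5.49 in Ctrl and 8.25, 6.97 and 7.80 in PT. The difference was 2.02 (standard error 0.38, adjusted p = 0.0371 without PT replicate 2). Clec4d, a lectin receptor and partner of Clec4e, differed by 1.78, and Fpr2, a receptor of formylated peptides, by 2.0. Cxcr2, through which neutrophils leave the bone marrow, differed by 1.46 (standard error 0.36), and without PT replicate 2 by 1.84 (adjusted p = 0.0454). The receptor Trem1 (1.18), the integrin chain Itgam (0.93), and the MYC antagonist Mxd1 (0.77) were called in both fits. Csf3r, which binds the growth factor G-CSF, was called only without PT replicate 2, with 1.06 (standard error 0.31). Cd177 and Cxcl2 were not called in either fit, with differences of 0.73 and 0.45 over all PT arrays.

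Genes of immature granulocytes gave a mixed picture. Of 15 measured, 4 were higher: the iron-binding protein Lcn2 (2.12, standard error 0.83), Olfm4 (1.27, standard error 0.51), Chil3 (1.68, standard error 0.72) and Ceacam10 (0.73, standard error 0.32). The secondary granule genes Camp and Ltf were called in neither fit, with differences of 0.07 and 0.29, and neither were the primary granule genes Mpo (-0.02) and Elane (0.22) of the earliest stages. Ctrl replicate 1 stood apart in these genes. Ngp was 8.68 on this array and 4.10 and 5.32 on the other Ctrl arrays, and Camp was 7.94 against 5.28 and 5.22. In PT, Ngp had 8.60, 5.69 and 8.57, within the range of Ctrl, and was called only without PT replicate 2. Camp had 6.34, 5.04 and 7.27, of which PT replicate 2 lay below every Ctrl array and the others within their range. The granulopoiesis list, with receptors and transcription factors, had 2 of 17 genes higher, and 7 without PT replicate 2. Csf2rb, the shared chain of the receptors of GM-CSF, interleukin-3 and interleukin-5, had 6.42, 5.97 and 6.22 in Ctrl and 8.79, 7.52 and 7.49 in PT, a difference of 1.73 (standard error 0.40).

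Classical and nonclassical monocytes are known as subsets with different receptors, and their markers differed in direction. Of 12 markers of classical monocytes 4 were higher and none lower. Ccr2, which guides these cells out of the marrow, had 8.83, 7.38 and 8.36 in Ctrl and 10.42, 9.06 and 9.16 in PT (difference 1.36, standard error 0.42). The endotoxin co-receptor Cd14 differed by 1.75 (standard error 0.52), and Ms4a6c by 1.10 with the reserve given for its family. Csf1r, F13a1 and Lyz2, which are also in this list, were not called, with -0.65, 0.49 and 0.14. The summed level of the list was highest in PT replicate 1, where the median marker was 1.22 above Ctrl, against 0.19 and 0.14 in replicates 2 and 3. In these replicates the summed level (9.94 and 9.88) lay within the range of Ctrl (9.86 to 10.12). Of 14 markers of nonclassical monocytes 6 were lower and none higher, with a median of -0.56 (7 lower and -0.62 without PT replicate 2). Cx3cr1, the fractalkine receptor, had 6.20, 5.72 and 6.45 in Ctrl and 4.56, 5.11 and 4.84 in PT (-1.29, standard error 0.30). Its 2 probe sets gave -1.29 and -0.23. Nr4a1, the nuclear receptor on which these cells depend, had 7.33, 6.98 and 7.51 and then 6.46, 6.23 and 5.15 (-1.32, standard error 0.35). Treml4 (-1.17), Adgre4 (-1.72), Klf4 (-0.94) and Eno3 (-0.96) were also lower. In Cx3cr1 and Nr4a1 all PT arrays lay below all Ctrl arrays, and PT replicate 2 was not the lowest.

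Some sensing receptors of innate cells and both inhibitors of interleukin-1, Il1r2 and Il1rn, were higher. Of 15 measured genes of the interleukin-1 and interleukin-18 system 4 were higher and none lower: Il1r2, the receptor antagonist Il1rn (0.79, standard error 0.28), the receptor partner Il1rap (1.61, standard error 0.55, with -0.03 to 1.61 over 5 probe sets) and the adaptor Myd88 (0.89, standard error 0.35). Il1rn had 5.78, 5.92 and 5.82 in Ctrl and 7.18, 6.13 and 6.59 in PT. The cytokine gene Il1b itself differed by -0.03 (standard error 0.52) and without PT replicate 2 by 0.63 (standard error 0.34), and was called in neither fit. Of 21 toll-like receptors and adaptors 7 were higher and 2 lower. Tlr2, the receptor of bacterial lipoproteins, had 5.72, 5.41 and 4.91 in Ctrl and 8.03, 6.33 and 6.68 in PT (1.66, standard error 0.41), and Tlr4, the endotoxin receptor, differed by 0.76 (standard error 0.32). Tlr6 (0.70) and Tlr13 (0.93), a sensor of bacterial ribosomal RNA, were higher. The lower ones were Cd180 (-1.05, standard error 0.24), a homologue of Tlr4 on B cells, and Unc93b1 (-0.67), which brings receptors to the endosome. In the fit without PT replicate 2, 6 were higher and 1, Cd180, was lower. Of the inflammasome genes 2 of 13 were higher, Casp4 (1.63, standard error 0.31), the intracellular endotoxin sensor called caspase-11 in mice, and Mefv (1.0), the sensor pyrin. Nlrp3 was not called, with 0.34 (standard error 0.25).

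Among 21 C-type lectin, TREM and CD300 receptors 5 were higher and 3 lower. Cd300lf, an inhibitory receptor of myeloid cells, had 6.05, 5.33 and 5.33 in Ctrl and 8.32, 6.91 and 8.43 in PT, a difference of 2.32 (standard error 0.43) and of 2.81 without PT replicate 2 (adjusted p = 0.0215). Clec4n, or Dectin-2, a receptor of fungal mannan, differed by 1.95 (standard error 0.50). Cd300a, another inhibitory receptor, was lower with -1.05 (standard error 0.35), but its 2 probe sets gave -1.05 to 0.13. When PT replicate 2 was left out 8 were higher, with Clec5a, Clec7a and Trem3 added, and 2 lower. Of 12 Fc receptors 3 were higher, the receptors of IgG Fcgr1 (1.71), Fcgr2b (0.85) and Fcgr3 (1.29, standard error 0.29). Of the 5 lower Fc receptors 4, Fcer2a, Fcmr, Fcrla and Fcrl1, belong to B cells, and the other, Fcer1a, to basophils and mast cells. Only 2 Fc receptors were higher without PT replicate 2, Fcgr2b and Fcgr3, and 2 lower, Fcer2a and Fcrla. Of 17 chemokine receptors 3 were higher, Ccr1, Ccr2 and Cxcr2, and 3 lower, Cxcr5, Ccr6 and Cx3cr1, while 0 of 21 chemokine ligands were higher and 1, Ccl5, lower (-0.73). Without PT replicate 2, Ccl6 was higher with 0.89 and Ccl5, at -0.40, no longer called.

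**Figure D4:**
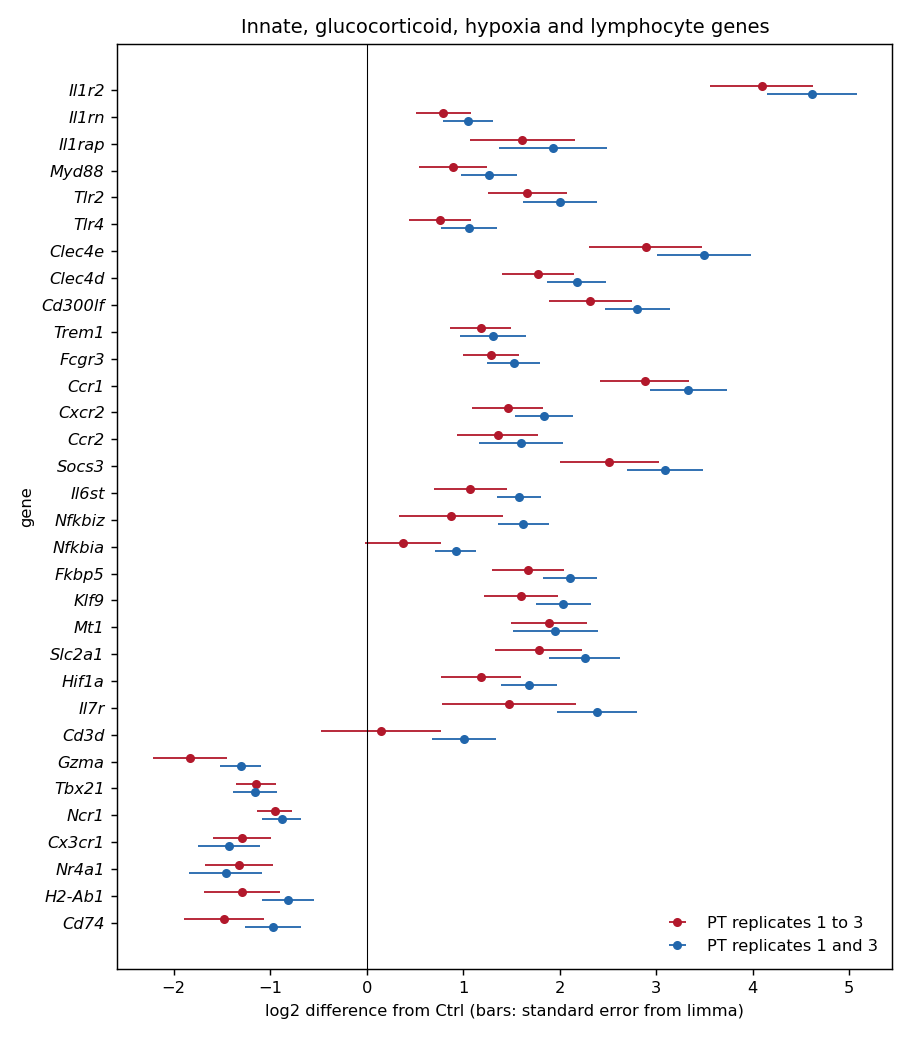
Log2 difference from Ctrl (x axis) with bars of 1 limma standard error, for 32 genes named in the text, from PT replicates 1 to 3 (red) and from replicates 1 and 3 (blue). Among the genes drawn, those of NK cells, nonclassical monocytes and class II lie to the left of 0 in both fits. The other receptors and the feedback genes lie to the right, and Cd3d moves from 0.15 to 1.01 when PT replicate 2 is left out. The genes are a selection, and members of these classes on the other side, such as Cd244a, Cd180 and Cd300a, are given in the text.

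In the list of the interleukin-6 family, JAK-STAT and SOCS genes, the largest difference was that of a feedback inhibitor. Socs3, which is induced by STAT3 and blocks the shared interleukin-6 receptor chain, had 7.49, 6.04 and 6.45 in Ctrl and 9.97, 8.02 and 9.54 in PT. The difference was 2.51 (standard error 0.51), its 3 probe sets gave 2.30 to 3.04, and without PT replicate 2 it was 3.09 (adjusted p = 0.0273). Il6st, that shared chain, also called gp130, differed by 1.08 (standard error 0.38), and by 1.58 without PT replicate 2 (adjusted p = 0.0371), and the receptor chain Il6ra by 0.87 (standard error 0.30). Lower were Tyk2 (-0.84, standard error 0.20), a kinase of interferon receptors, and Il10ra (-0.66), each with a probe set of the opposite sign (up to 0.18 and 0.15). Of the 27 measured genes of this family 3 were higher and 2 lower with PT replicate 2, and 8 and 1 without it, among them Stat3 itself with 0.96 (standard error 0.28). The cytokine genes Il6, Il10, Csf3 and Tnf were called in neither fit, with 0.12, 0.08, -0.19 and 0.25, and with mean levels in Ctrl below the median of all genes on these arrays. Of the TNF family the death receptor Fas (0.74), Tnfrsf1a (0.62) and Tnfsf14 (1.08) were higher. Cd40 (-0.88) and the BAFF receptors Tnfrsf13c and Tnfrsf13b (-1.82 and -1.49), all of B cells, were lower. Of the 22 genes 5 were higher and the same 3 lower without PT replicate 2.

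In NF-kB feedback the outcome rested on PT replicate 2. None of 15 measured genes was called with it and 3 were higher without it, the inhibitors Nfkbiz (1.62, standard error 0.27, adjusted p = 0.0454), Nfkbia (0.92, standard error 0.21) and Tnfaip3 (0.90, standard error 0.26). Nfkbiz had 5.57, 5.31 and 5.33 in Ctrl and 6.60, 4.78 and 7.46 in PT. PT replicate 2 was thus below every Ctrl array, and the other PT arrays were above. Of 25 immediate early and AP-1 genes 4 were higher and 2 lower in the fit to all arrays. Ier3, an early response gene that protects from cell death, had 3.89, 3.31 and 4.16 in Ctrl and 7.63, 5.24 and 5.92 in PT (2.48, standard error 0.54). Fosl2 (1.0), Fosl1 (0.89) and Egr1 (0.93) were higher, and Fosl1 was no longer called without PT replicate 2 (0.44). Junb, at 5.35, 3.78 and 5.15 in PT and 3.76 to 3.96 in Ctrl, was called only without it (1.40, standard error 0.33).

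A minority of glucocorticoid receptor targets was called, and all those called were higher. Of 21 measured genes 4 were higher and none lower, with a median of 0.30, and without PT replicate 2, 8 were higher with a median of 0.44, and 3 of these had an adjusted p under 0.05. Between these fits the share of all genes called higher rose from 1.41% to 4.22%. Fkbp5, a co-chaperone that lowers the affinity of the receptor for the hormone, had 5.75, 5.73 and 6.28 in Ctrl and 8.50, 6.72 and 7.57 in PT. The difference was 1.67 (standard error 0.38), or 2.11 without PT replicate 2 (adjusted p = 0.0302), although its 3 probe sets ranged from 0.09 to 1.67. Klf9, a transcription factor induced directly by the receptor, had 4.18, 4.14 and 4.88 in Ctrl and 6.70, 5.12 and 6.18 in PT (1.60, standard error 0.38), with -0.08 to 1.60 over 7 probe sets. In both genes no PT array overlapped with Ctrl. The metal-binding protein Mt1 differed by 1.89 (standard error 0.40) with PT replicate 2 and by 1.96 without it, and Il1r2 belongs to this list as well. Cebpd (1.14), Dusp1 (1.04) and Ddit4 (1.09) were called only without PT replicate 2. Tsc22d3, also called GILZ and a frequently used target, was not called, with 9.58, 10.08 and 9.75 in Ctrl and 9.32, 8.04 and 10.33 in PT, and neither were Per1 (0.47) and the receptor Nr3c1 itself (0.36). Of 20 clock genes 1 was higher, the repressor Nfil3 (0.90, standard error 0.32), a share of 5.0% where 3.67% of all genes were called. The clock genes Arntl and Dbp were not called, with differences of -0.003 and 0.21. The time of day of sampling is not given in the sources used here.

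Slc2a1, the glucose transporter GLUT1, had 5.95, 5.50 and 6.11 in Ctrl and 8.43, 6.68 and 7.79 in PT, a difference of 1.78 (standard error 0.45), or 2.26 without PT replicate 2 (adjusted p = 0.0454). Hif1a, the oxygen-regulated transcription factor, differed by 1.18 (standard error 0.41), with -0.01 to 1.39 over 4 probe sets, and by 1.69 without PT replicate 2 (adjusted p = 0.0570). They were the only 2 of 22 hypoxia genes called with PT replicate 2, with a median of 0.18 over the list. Without it 5 were higher, with a median of 0.26, the others being Ddit4, Bnip3 (0.68) and Ero1a (0.78). Vegfa was called in neither fit, with 0.11 (standard error 0.26). Of 19 glycolysis genes Slc2a1 and the glycogen phosphorylase Pygl (1.11) were higher and the isomerase Tpi1 (-0.69) was lower. Of 12 genes of arginine metabolism only Arg2 was called, and Arg1 and Nos2, which use the same amino acid, differed by 0.24 and 0.03. Among 17 proteases and inhibitors Mmp8, the sheddase Adam8 (1.95, standard error 0.44, adjusted p = 0.0408 without PT replicate 2) and Timp2 (0.79) were higher. Entpd1, or CD39, which degrades extracellular ATP, was 1.13 higher and the 1 of 17 checkpoint and suppression genes called. Its 3 probe sets gave 0.10 to 1.13. Haptoglobin, Hp, which binds free hemoglobin, had 8.99, 8.16 and 8.21 in Ctrl and 10.56, 9.59 and 9.72 in PT (1.5, standard error 0.32). Of 22 interferon-stimulated genes 3 were higher, Ifit1 (1.01), Rtp4 (0.86) and Zbp1 (1.02), and none was lower. This was 13.6% of the list, where 3.67% of all genes were called, and the 2 probe sets of Rtp4 gave -0.03 and 0.86.

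B-cell genes made up most of the largest negative differences. Of 22 measured markers 20 were lower and none higher, with a median of -1.52. Without PT replicate 2, 13 were lower, with a median of -1.05. Fcer2a, the low-affinity IgE receptor CD23 of B cells, had 7.50, 8.12 and 8.63 in Ctrl and 5.30, 5.25 and 7.16 in PT (-2.18, standard error 0.52). Cxcr5, which guides B cells into follicles, had 6.54, 7.20 and 7.53 and then 4.84, 4.06 and 6.39 (-1.99, standard error 0.51). Ms4a1, or CD20, had 9.64, 10.02 and 10.37 and then 8.39, 6.63 and 9.38 (-1.88, standard error 0.56). In each of these genes PT replicate 3 was the PT array closest to Ctrl and all 3 PT arrays were below all Ctrl arrays. Ly6d (-2.12), Tnfrsf13c (-1.82), Cd79b of the B-cell receptor (-1.80), Ralgps2 (-1.77) and the transcription factor Spib (-1.70) completed the top 10 together with Gzma and Adgre4. Bank1, an adaptor of B cells, had a larger difference (-2.47, standard error 0.86), but PT replicate 3 (8.80) lay above the lowest Ctrl array (8.68). Vpreb3 was the most even marker, with 6.81, 6.67 and 7.01 in Ctrl and 5.84, 5.54 and 5.89 in PT (-1.07, standard error 0.19). The adjusted p of all B-cell markers was 0.118 or more without PT replicate 2, the smallest being that of Vpreb3. Pou2af1 and Pax5 were not called, with -0.83 and 0.36.

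Antigen presentation followed the same direction. Of 15 MHC class II genes 7 were lower and none higher (median -0.90), and 5 without PT replicate 2 (median -0.55). Cd74, the invariant chain, had 10.62, 11.06 and 11.35 in Ctrl and 9.64, 8.52 and 10.44 in PT (-1.48, standard error 0.41). H2-Ab1 differed by -1.29 (standard error 0.39), H2-DMb2 by -1.80 (standard error 0.61) and H2-Oa by -1.59 (standard error 0.47). The H2 genes are similar in sequence, so that their probe sets may share signal. Ciita, the master regulator of class II genes, was not called, with 4.99, 5.02 and 5.50 in Ctrl and 4.25, 5.37 and 5.49 in PT. Of 17 genes of B-cell receptor signaling 9 were lower, 6 of them also B-cell markers (Cd79a, Cd79b, Cd22, Cr2, Blk and Blnk). Plcg2, the phospholipase of this pathway, had 7.26, 7.58 and 7.65 in Ctrl and 6.59, 6.70 and 6.49 in PT (-0.90, standard error 0.17), and the 3 PT arrays lay close together. Of 15 genes of the MHC class I pathway 1, the chaperone Calr (-0.66), was lower and none higher, and without PT replicate 2 none was lower and 1, Erap1 (0.73), was higher. B-cell and class II markers moved together over the arrays, and their part in each other was not tested.

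NK cell genes were mostly lower. Of 18 measured markers 10 were lower and 1 was higher, the receptor Cd244a (0.80), and without PT replicate 2, 6 were lower and 2 higher. Gzma, a granule protease of NK and cytotoxic T cells, had 9.58, 9.56 and 9.50 in Ctrl and 8.27, 6.66 and 8.20 in PT. Its difference was -1.83 (standard error 0.39), and -1.31 (standard error 0.21, adjusted p = 0.0454) without PT replicate 2. Tbx21, the transcription factor T-bet, had 4.94, 4.22 and 4.64 in Ctrl and 3.44, 3.47 and 3.45 in PT (-1.15, standard error 0.20). Ncr1, the activating receptor NKp46 that defines NK cells, had 4.85, 4.85 and 5.10 and then 4.22, 3.83 and 3.88 (-0.95, standard error 0.19). The exit receptor S1pr5 (-0.84), Nkg7 (-1.05) and Klrg1 (-0.61) were lower in both fits. In Tbx21 and Ncr1 all PT arrays were below Ctrl and PT replicate 2 did not stand apart. Prf1, the gene of perforin, was called in neither fit (-0.08, standard error 0.23).

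T-cell genes depended on PT replicate 2. Of 23 measured markers 0 were called with it, and 8 were higher and none lower without it, with medians of 0.17 and 0.60. Il7r, the interleukin-7 receptor of resting T cells, had 7.59, 8.05 and 8.95 in Ctrl and 10.04, 7.86 and 11.13 in PT. Its difference was 1.48 (standard error 0.69), or 2.39 (standard error 0.42, adjusted p = 0.0622) without PT replicate 2. Cd3d, a chain of the T-cell receptor complex, had 8.30, 8.61 and 9.31 and then 9.36, 7.17 and 10.13, so that PT replicate 2 was below and the others above all Ctrl arrays. Trat1 (2.0), Cd3g (1.30), Lef1 (1.29), Satb1 (1.07), Cd247 (0.94) and Skap1 (0.81) were the others called without PT replicate 2. The 4 probe sets of Cd247 gave -0.66 to 0.94 in this fit and those of Skap1 -0.10 to 0.81, so that the direction of both depended on the probe set. The coreceptors Cd4 and Cd8a were called in neither fit, with 0.04 and 0.09.

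Arrays differed in lymphocyte genes within groups, and B- and T-cell markers varied in parallel. The median B-cell marker was -0.50, 0.03 and 0.46 relative to the mean of Ctrl on Ctrl replicates 1 to 3, and the median T-cell marker was -0.48, -0.11 and 0.62. In PT replicates 1 to 3 the B-cell markers were at -1.43, -2.53 and -0.40 and the T-cell markers at 0.08, -0.73 and 1.16. PT replicate 3 thus fell within the range of Ctrl in B-cell markers and above it in T-cell markers. The B-cell median minus the T-cell median was -0.02, 0.14 and -0.16 in Ctrl and -1.52, -1.80 and -1.56 in PT. This contrast within an array, chosen after the values were seen, separated all PT arrays from all Ctrl arrays, PT replicate 2 included, and is given without a test. On the arrays of PT + HS mice, which share these Ctrl arrays, it was -1.09, -1.66 and -1.55.

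**Figure D5:**
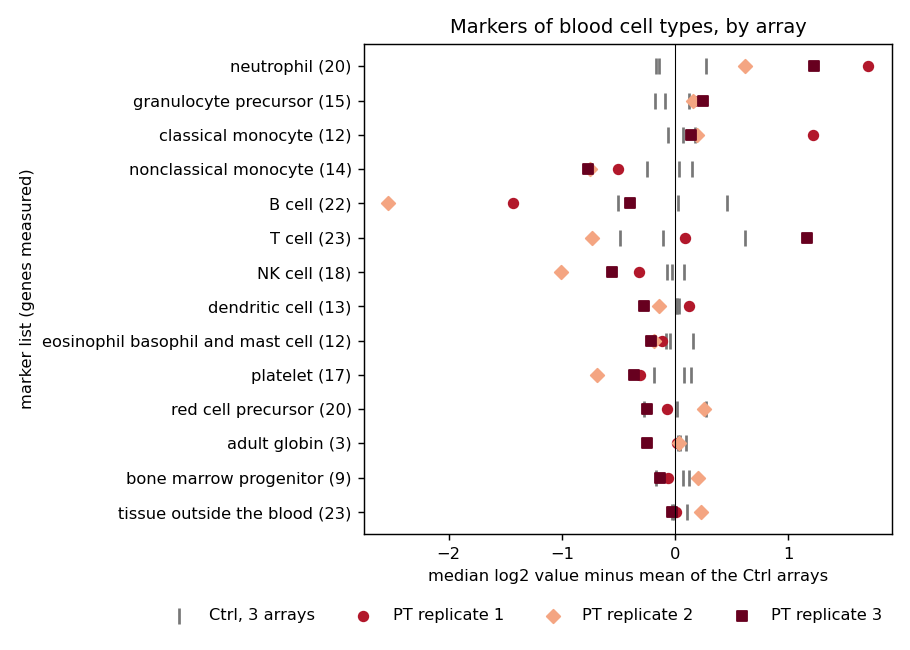
Median over the markers of a cell type of the log2 value minus the mean of the 3 Ctrl arrays (x axis), for 14 lists (y axis, number of genes measured in brackets), with grey ticks for the Ctrl arrays and coloured symbols for PT replicates 1 to 3. Neutrophil markers lie at 0.62 to 1.71 in PT, B-cell markers at -2.53 to -0.40, and T-cell markers range from -0.73 in PT replicate 2 to 1.16 in PT replicate 3.

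All 17 differences of the platelet markers were negative, with a median of -0.44, and 11 of the 17 did not overlap between the groups, where 9.44% of all genes did not overlap in either direction. Past the thresholds were 3, all lower, Gp5 (-0.72, standard error 0.26), Gp6 (-0.61) and Mmrn1 (-0.62). Gp5, a subunit of the receptor of von Willebrand factor, had 9.87, 9.94 and 9.59 in Ctrl and 9.02, 8.99 and 9.23 in PT, and was the 1 platelet marker still called without PT replicate 2. The abundant chemokines Pf4 and Ppbp were not called, with -0.23 and -0.34. Alox12, the lipoxygenase of platelets, was lower with -0.68 (standard error 0.21). Of 20 markers of red cell precursors 0 were called with PT replicate 2 and 1, Epor, was lower without it (-0.78). Alas2, the first enzyme of heme synthesis in red cells and one of the highest values on the arrays, was at 14.27 to 14.43 on all 6 arrays. None of the 3 globin genes, of 9 bone marrow progenitor genes and of 23 genes of tissues outside the blood was called in either fit, the last group including Alb of liver and Gfap of astrocytes.

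Protein synthesis and respiration were without calls as long as PT replicate 2 was included. None of 28 ribosomal protein genes and none of 30 respiratory chain genes was called. Without PT replicate 2, 3 and 2 were higher, with Rpl11, Rpl22 and Rps25 at 0.64, 0.63 and 0.64, and 27 of the 28 ribosomal differences were positive. Rpl22 had 10.71, 10.84 and 11.12 in Ctrl and 11.26, 10.29 and 11.79 in PT, the same order as seen for T-cell genes, with PT replicate 2 below and the others above Ctrl. None of 24 cell cycle genes was called, and 1, Cdk2, was lower without PT replicate 2 (-0.59). Adhesion, lipid mediators and cell death gave scattered calls. Of all genes 3.67% were called with PT replicate 2 and 6.14% without it. With it, the shares for the unfolded protein response (5.0%), coagulation (5.56%) and checkpoint genes (5.88%) were near that of all genes. Other probe sets of Itgb1, Nfatc1, Hsp90aa1, Fcrl1, Timp2, Rtp4, Ceacam10, Nfkbiz, Nfe2l2, Txnrd1, Ero1a and Erap1 also had the opposite sign over all 3 PT arrays. In the fit without PT replicate 2, where Nfe2l2 and Txnrd1 were called, their probe sets gave -0.14 to 0.99 and -0.28 to 0.68. Those of Ero1a and Erap1, also called there, gave -0.26 to 0.78 and -0.61 to 0.73. Of 19 integrins, selectins and ligands Itgam and St3gal4 (0.60) were higher and Itgb1 (-0.71), Itgb7 (-0.64) and Icam2 (-1.19) lower. None was lower without PT replicate 2, and Itgam, Selplg (0.74) and Icam1 (0.79) were higher. Of 9 chemoattractant receptors Fpr2, the chemerin receptor Cmklr1 (0.61) and the prostaglandin receptor Ptger2 (0.81, standard error 0.22) were higher, and Cmklr1 was not called without PT replicate 2. Of 10 genes of the phagocyte oxidase Hvcn1 (-1.56), a proton channel that B cells also carry, and Ncf1 (-0.86) were lower, and neither was called without PT replicate 2. Alox12 and Alox15 (-0.72) were the 2 lower of 14 genes of eicosanoid synthesis, and Alox15 alone without PT replicate 2. In the death receptor and BCL2 list of 18 genes, Fas was higher and Birc2 (-0.85) lower, while without PT replicate 2 Fas, Bcl2, Bcl2l11, Casp8 and Apaf1 were higher. Apaf1, the core of the apoptosome, with -0.03 to 0.89 over 2 probe sets, had 4.18, 3.96 and 4.59 in Ctrl and 6.26, 3.72 and 5.42 in PT. Of 18 complement genes Cd55, a regulator that shields cells, was lower (-1.98, standard error 0.65), together with Cr2 of B cells, which was not called without PT replicate 2, and Itgam was higher. Of 18 coagulation genes 1, Serpinb2 (-0.63), was lower, and none without PT replicate 2. In T-cell receptor signaling Nfatc1 (-0.59) and Csk (-0.62) were lower and none of 19 genes was higher, whereas without PT replicate 2, 5 were higher (Cd3d, Cd3g, Cd247, Ptpn22 and Ubash3a) and 1, Nfatc1, was lower. Of 13 dendritic cell markers Cd83 (-1.0) was lower in both fits. Of 12 markers of eosinophils, basophils and mast cells Fcer1a (-0.64) and Gata2 (-0.70) were lower, and without PT replicate 2 only Gata2. Calr was the 1 lower of 20 genes of the unfolded protein response, and without PT replicate 2 it was not called and 1, Xbp1, was higher. Of the lists not yet given without PT replicate 2, the counts in that fit were 5 higher in the interleukin-1 and interleukin-18 system and 5 higher among classical monocyte markers, with none lower in either. They were 3 higher and 2 lower for chemokine receptors, 6 and 3 for immediate early genes, 2 and 1 for clock genes, 3 and 1 for glycolysis and 1 and 1 for checkpoint genes. For proteases and for interferon-stimulated genes 4 were higher each and none lower. The inflammasome, arginine, and S100 lists had the same counts in both fits. Of 21 genes of heat shock and oxidative stress 3 were lower, Hsp90aa1 (-0.69), Hspd1 (-0.63) and Srxn1 (-0.81). Only Srxn1 was lower without PT replicate 2, and Nfe2l2 (0.99), the regulator of the oxidative stress response also called NRF2, and Txnrd1 (0.68) were higher.

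Of the 47 genes with an adjusted p under 0.05 without PT replicate 2, 39 were also past the thresholds of the study with it. Klf10, a repressor induced by TGF-beta, was 1 of the 2 lower genes, with 4.69, 4.52 and 4.56 in Ctrl and 3.39, 3.08 and 3.0 in PT. The difference of -1.43 (standard error 0.17) was the same size in both fits (-1.39, adjusted p = 0.0303), and the other lower gene was Gzma. Bst1, also called CD157, a surface enzyme of myeloid cells, had 5.15, 4.29 and 3.96 in Ctrl and 7.46, 6.01 and 7.46 in PT (2.51, standard error 0.45, adjusted p = 0.0215 without PT replicate 2). Chosen after the values were seen, 3 further genes are given for their pattern. Emb, a membrane glycoprotein, had 8.56, 8.62 and 8.63 and then 10.14, 9.07 and 10.03, with differences of 0.16 to 1.38 over 3 probe sets. Rab27a, a GTPase of granule release, differed by 1.25 (standard error 0.25, with 0.11 to 1.25 over 4 probe sets). Fgl2, a fibrinogen-like protein of monocytes and regulatory T cells, was the opposite case. It had 6.90, 6.11 and 6.29 in Ctrl and 7.91, 5.15 and 8.06 in PT, so that its difference was 0.61 (standard error 0.64) with PT replicate 2 and 1.55 (adjusted p = 0.0442) without it.

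Mice with polytrauma and hemorrhagic shock, compared with the same Ctrl arrays, had differences of 4.75 for Mmp8, 3.48 for Arg2, 2.62 for Socs3, 2.24 for Fkbp5 and -0.63 for Klf10. As the Ctrl arrays are shared, these values are no independent support for those of PT.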

How the data were processed

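The RNA of whole blood was measured on 1 array per animal in 3 groups of 3 mice (Ctrl, PT, PT + HS). The deposited log2 values were made by the authors with the robust multiarray average in Expression Console and BRB-ArrayTools, whose versions the sources used here do not give. The methods name another array type than the one to which the deposited probe set names belong. Of 45101 probe sets, 932 with several symbols and 9211 without a symbol were left out. Of the other 34958 probe sets 34754 received a current symbol through the Entrez ID. Each of 18194 genes was represented by its probe set of highest average level on the 9 arrays (9012 genes had several).

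Differences of PT from Ctrl were tested with limma 3.58.1 in R 4.3.3 on the group means of all 9 arrays, with Benjamini-Hochberg adjustment over all genes, and again without PT replicate 2. Standard errors are those of this model. The procedure was tested on simulated data. The thresholds were an unadjusted p under 0.05 and 1.5-fold. Precision is limited by how few arrays there were. Named were the 10 non-overlapping genes of each direction with the largest difference, up to 10 of each direction with an adjusted p under 0.05 without PT replicate 2 (only 2 were lower), called or defining members of gene lists, and the 5 genes of each direction most particular to PT replicate 2. The members and lists were chosen with earlier results of these data known. Promoters were taken from RefSeq (GRCm38.p6). Alternatives were the methods' t-test, Ctrl and PT arrays only, a variance trend, array weights, equal medians, repeated quantile normalization, genes above the median level, other probe set rules, a 2-fold threshold, a replicate block and leaving out each array, and cyclic loess was added after seeing the data.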

Additional observations from a re-analysis of the deposited data

How the results depend on the processing

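The 668 genes past the thresholds became 293 with the methods' t-test, 1666 with array weights (969 higher, 697 lower), 1075 with every probe set tested and 218 at 2-fold, and 530 to 1493 when 1 array was left out. The count of adjusted p under 0.05, 0 with the deposited values, was 3 with a variance trend, 448 with array weights, 3 with repeated quantile normalization, 2 among genes above the median level, 1 with the mean of the probe sets and 3 with cyclic loess, which was chosen after seeing the data, and 0 to 47 when 1 array was left out. Without PT replicate 2, the 1117 genes became 491 with the t-test, 714 with the mean of the probe sets, 1831 with every probe set and 347 at 2-fold, and 957 to 1666 when a Ctrl or PT + HS array was also left out. Their share of higher genes was 68.8%, and 58.5% (637 higher, 451 lower) with repeated quantile normalization. The 47 genes became 0 with the t-test, 22 with Ctrl and PT arrays only, 95 with a variance trend, 12 with repeated quantile normalization, 16 with the mean of the probe sets and 29 with every probe set, and 0 to 41 when a further array was left out. Both ends of this last range came from fits that left 1 PT array, so that nothing is concluded from them. When a Ctrl or PT + HS array was left out, the range was 2 to 40. The cause of the changes in all these counts was not tested.

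With the replicate block, 743 genes were past the thresholds and 2, Mmp8 and Ccr1, had an adjusted p under 0.05, and without PT replicate 2 the counts were 1243 and 37. Deviations of Ctrl and PT arrays with the same number correlated at -0.0052, 0.1844 and 0.4778 over genes, the last being the highest of all pairs. Ctrl replicate 1 correlated best with PT replicate 2 (0.3065). With so few pairs, and with PT replicate 2 unlike all other arrays, these values cannot decide whether the numbers pair the animals. Over all alternatives, the 20 genes with the largest differences kept their call 412 times and lost it 8 times, 7 of these with the t-test, and no direction reversed. These genes were picked for their size from the same arrays, so that this is no independent support. The 47 genes with an adjusted p under 0.05 without PT replicate 2 held less well. All 47 kept it with a variance trend, 12 with repeated quantile normalization and 0 with the t-test.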

Other observations

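Some genes were particular to PT replicate 2 and are given as values, with no test. P2ry10, a lysophospholipid receptor of lymphocytes, had 7.58, 8.27 and 7.97 in Ctrl and 8.04, 4.24 and 9.01 in PT replicates 1 to 3. Igfbp4, a binding protein of insulin-like growth factors, had 8.04, 4.50 and 9.41 in PT, the clock repressor Nr1d2 6.13, 2.99 and 6.86, and Esco1, a cohesin acetyltransferase, 6.45, 3.82 and 7.93. H2-Ob, a class II gene of B cells, had 8.04, 5.21 and 9.93. In all 5 genes PT replicate 2 was below every Ctrl array. In the opposite direction, Mthfd2, a mitochondrial folate enzyme, had 7.53, 9.02 and 6.75 in PT, and Oas3, an interferon-induced sensor of double-stranded RNA, 7.06, 8.49 and 5.61. For Allc, Pnpla5 and Tmem79, which were lower in level, PT replicate 2 was also the highest of the 3 PT arrays.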
